A study of Mus musculus with 13 samples.

Results

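Mouse B cells that lack STAT3 still gave peaks with an anti-STAT3 antibody, and some of those peaks lay where wild-type cells had a peak too. Peaks of all 12 deposited lists on chromosomes 1 to 19, X and Y were merged into regions wherever they overlapped by at least 1 bp, and a region was called shared when at least 1 knockout list and at least 1 wild-type list had a peak in it. By that rule 353 of 11227 regions were shared, and they held 1381 of the 13513 peaks used. The share of all regions that met the rule was 3.14%, and of the 7461 regions with a wild-type peak it was 4.73%. Because the calls in wild-type and knockout lists chose these regions, their number and their fold enrichment are given as a description, with no test.

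The 12 libraries were made by CUT&RUN, in which an antibody leads a nuclease to chromatin in permeabilised cells and the DNA that is cut loose is sequenced. All groups began as naive splenic B cells that spent 96 h with IL-4 at 12.5 ng/mL and anti-CD40 at 1 µg/mL, which drives part of the cells to switch from IgM to IgG1. Sorted IgM+ or IgG1+ cells (400000 each) then received, for 1 h, anti-CD40 with either the same dose of IL-4 or 10 ng/mL of IL-21. The wild-type (WT) cells had 2 libraries for each cytokine and isotype, and the STAT3 knockout (KO) cells had 1, so no KO value has a replicate of its own. Every group, the KO groups included, had thus seen anti-CD40 and IL-4 for days before the last hour, and the IL-21 arm had no IL-4 listed in that hour, so the effect of added IL-21 and that of absent IL-4 cannot be told apart. The labels give neither the allele or Cre driver of the knockout, nor the age of the animals, nor whether the replicates are from different animals. A p-value over libraries therefore reflects their own scatter, which could be technical. A peak list holds no expression value, so neither the loss of Stat3 nor the B cell identity was checked here.

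STAT3 is a transcription factor that cytokine receptors such as the IL-21 receptor switch on through JAK kinases; it then binds short palindromic DNA sites of the form TTCNNNGAA, whereas IL-4 acts mainly through STAT6, which favours a site with 1 more base in the middle. A nuclease tethered to an antibody also cuts accessible DNA when the antibody has no target, and the promoters of widely expressed genes are the most open DNA in most cells. Many of these promoters are rich in CpG and carry the GC box, GGGCGG, a site of the SP and KLF factor families. Cells without the target protein show the background of the antibody and the nuclease.

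The promoter sequences below show what shared regions near gene starts look like. Each is the 250 bases before the annotated start of the gene, 5′ to 3′ on the gene's strand, from RefSeq on GRCm38.p6, the assembly behind the mm10 build of the peaks. Capitals mark matches to any of the 6 motifs searched on both strands: the GC box (GGGCGG and its complement), the STAT site TTCNNNGAA, the STAT6 type (the same site with 1 more base in the middle), the AP-1 site TGANTCA, the CCAAT box and the core of ETS factor sites, CCGGAA. An ETS match can overlap a STAT or STAT6-type match. The first 5 are regions found in 7 or 8 lists, of which at least 3 were KO lists, and 4 of them (all but Prdx3) show several GC boxes. The last 2 are regions in 2 KO lists that also hold a STAT match.

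Avl9, chr6:56714655-56714904, plus strand: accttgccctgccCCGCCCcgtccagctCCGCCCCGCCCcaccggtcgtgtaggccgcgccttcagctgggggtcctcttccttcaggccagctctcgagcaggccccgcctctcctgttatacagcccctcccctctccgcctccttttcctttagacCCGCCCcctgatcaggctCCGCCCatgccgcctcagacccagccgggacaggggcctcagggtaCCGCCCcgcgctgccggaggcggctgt
Clic4, chr4:135272761-135273010, minus strand: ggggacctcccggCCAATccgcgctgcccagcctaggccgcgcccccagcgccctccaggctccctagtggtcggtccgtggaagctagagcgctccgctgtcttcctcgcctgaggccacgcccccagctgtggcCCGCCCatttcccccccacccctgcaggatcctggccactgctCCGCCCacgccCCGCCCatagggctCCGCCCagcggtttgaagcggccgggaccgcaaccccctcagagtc
Gpr155, chr2:73386481-73386730, minus strand: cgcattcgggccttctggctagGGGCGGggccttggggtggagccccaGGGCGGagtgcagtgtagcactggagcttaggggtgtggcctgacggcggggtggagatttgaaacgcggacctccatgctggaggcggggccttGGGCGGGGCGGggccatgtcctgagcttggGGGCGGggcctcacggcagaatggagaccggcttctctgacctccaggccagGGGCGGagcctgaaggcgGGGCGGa
Prdx3, chr19:60874539-60874788, minus strand: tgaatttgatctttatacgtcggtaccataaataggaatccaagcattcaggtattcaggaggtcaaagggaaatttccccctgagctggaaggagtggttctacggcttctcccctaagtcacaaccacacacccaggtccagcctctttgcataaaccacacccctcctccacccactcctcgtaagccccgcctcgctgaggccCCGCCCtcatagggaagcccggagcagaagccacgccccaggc
Abcb9, chr5:124095799-124096048, minus strand: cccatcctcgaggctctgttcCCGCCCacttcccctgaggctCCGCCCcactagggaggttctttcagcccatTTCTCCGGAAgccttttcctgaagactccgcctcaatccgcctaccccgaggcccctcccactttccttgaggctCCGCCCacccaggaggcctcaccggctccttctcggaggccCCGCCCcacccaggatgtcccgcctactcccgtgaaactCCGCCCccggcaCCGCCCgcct
Bclaf1, chr10:20312219-20312468, plus strand: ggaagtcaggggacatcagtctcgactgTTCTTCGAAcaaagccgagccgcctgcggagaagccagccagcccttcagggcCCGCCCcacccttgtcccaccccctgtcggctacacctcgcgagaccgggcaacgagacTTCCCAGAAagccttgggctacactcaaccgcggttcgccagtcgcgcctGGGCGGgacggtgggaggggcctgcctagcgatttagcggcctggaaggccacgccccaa
Orai1, chr5:123014824-123015073, plus strand: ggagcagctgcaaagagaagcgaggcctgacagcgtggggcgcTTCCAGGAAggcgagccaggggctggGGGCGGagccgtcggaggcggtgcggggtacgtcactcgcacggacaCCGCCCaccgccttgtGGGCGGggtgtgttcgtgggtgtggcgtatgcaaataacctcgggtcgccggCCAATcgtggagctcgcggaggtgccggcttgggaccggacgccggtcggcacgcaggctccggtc

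The upstream stretch of Gpr155 had 7 GC boxes, those of Avl9 and Abcb9 had 6 each, that of Clic4 had 4 and that of Prdx3 had 1. None of these 5 stretches had a TTCNNNGAA match, and Abcb9 had 1 match of the STAT6 type, which overlaps an ETS match. Bclaf1, whose product takes part in RNA processing and transcription, had 2 STAT matches and 2 GC boxes. Orai1, the pore of the store-operated calcium channel, had 1 STAT match and 3 GC boxes. A match is a run of letters and not a shown binding site.

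Over all shared regions the same pattern held as a count. The best summit lay within 250 bp of the annotated start of a protein-coding gene in 155 shared regions, and 141 of those promoters (300 bases each, from 250 before to 50 after the start) held a GC box, or 91.0%. A GC box was found in 46.2% of all 21263 coding promoters in the table, in 76.2% of the promoters at any region of these lists, and in 79.1% of the 182 promoters at WT-only regions of at least 2 WT lists. At KO-only regions of at least 2 KO lists, 18 of 19 promoters (94.7%) had one, so the high share is not particular to shared regions. The median number of CpG in a promoter was 25 at shared regions and 24 at these WT-only regions. It was 28 at the KO-only regions and 13 over all coding promoters. In the promoters with a summit, the shared regions were close to the WT-only ones in that measure.

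The STAT site gave another order. It was found in 14 of the 155 shared promoters (9.03%), beside 7.69% of all coding promoters, 10.2% of the promoters at any region, 23.1% of the promoters at WT-only regions of at least 2 lists and 51.4% of the 35 promoters at WT-only regions in all 4 WT IL-21 lists. The shared regions in all 4 WT IL-21 lists, without those in all 12, had it in 3 of 6 promoters (50.0%), close to that last share. Among shared regions in 3 or 4 KO lists but not in all 12 lists, 0 of 16 promoters had the STAT site and 16 of 16 had a GC box. The KO-only regions of at least 2 KO lists had the STAT site in 0 of 19 promoters. The STAT6 type was found in 7.74% of shared promoters, 7.69% of WT-only ones and 6.35% of all coding promoters. ETS matches were in 29.7% of shared promoters, 46.2% of WT-only ones and 18.7% of all, and CCAAT in 29.7%, 33.0% and 38.2%. AP-1 matches were in 4.52% of shared promoters, 3.30% of WT-only ones and 6.99% of all. These shares are descriptions without a test, and the set in 3 or 4 KO lists was singled out after its values were seen.

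The 14 shared promoters with a STAT match were those of 1810037I17Rik, Bclaf1, Gnaq, H2-DMb2, Hace1, Irf1, Maff, Map2k4, Mios, Nr6a1, Orai1, Paics, Rprml and Ube2d3. Of these, 11 regions were in 1 KO list and 3 (Bclaf1, Maff and Orai1) in 2, while 3 (Bclaf1, Irf1 and Maff) were in all 4 WT IL-21 lists. A GC box stood in the same 300 bases in 10 of the 14. They include the transcription factor gene Irf1, the small Maf factor Maff and H2-DMb2, which encodes a chain of the peptide exchange factor of MHC class II.

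Most shared regions were in few lists. Of the 353, 147 were in 2 lists (1 WT and 1 KO), 71 in 3, 42 in 4, 33 in 5, 24 in 6, 7 in 7, 4 in 8, 1 in 9, 2 in 10, 3 in 11 and 19 in all 12. In 251 regions exactly 1 KO list had the peak, and in 178 exactly 1 WT list had it. All 4 KO lists held 29 regions, of which 19 were the regions in all 12 lists. The most frequent combination was thus 1 WT and 1 KO list, and beyond 8 lists most regions were those in all 12.

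**Figure D1:**
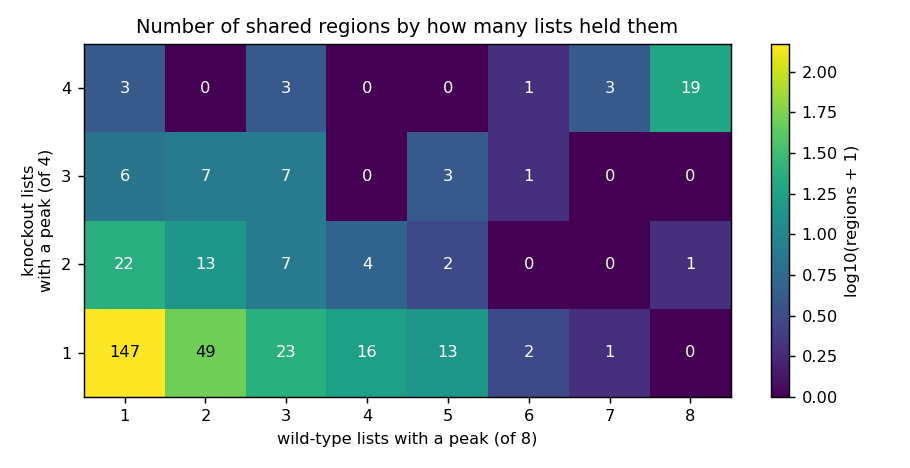
Number of shared regions by how many of the 8 wild-type lists (horizontal axis) and of the 4 knockout lists (vertical axis) had a peak there. Each cell prints its count and the colour is log10(regions + 1). The corner of 1 WT and 1 KO list holds 147 regions and the corner of all 12 lists holds 19.

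The KO lists did not contribute alike. The KO IL-4 IgM list was the sole KO source of 95 shared regions, the KO IL-4 IgG1 list of 72, the KO IL-21 IgM list of 55 and the KO IL-21 IgG1 list of 29. In all, these lists held 188, 148, 122 and 79 shared regions. The KO IL-4 IgM list was short (763 peaks used), and 24.9% of its peaks lay in shared regions, while for the KO IL-4 IgG1 list, the longest of the KO lists (1892 peaks), the share was 7.93%. The KO IL-21 lists had 11.4% (IgM) and 12.3% (IgG1). Over the 8 WT lists the share ran from 6.61% to 10.9%, so the KO IL-4 IgM list stood above each of the other 11. By the rule a KO peak can be matched by any of 8 WT lists, but a WT peak only by 4 KO lists. Shares of KO and WT lists are therefore not like measures.

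**Figure D2:**
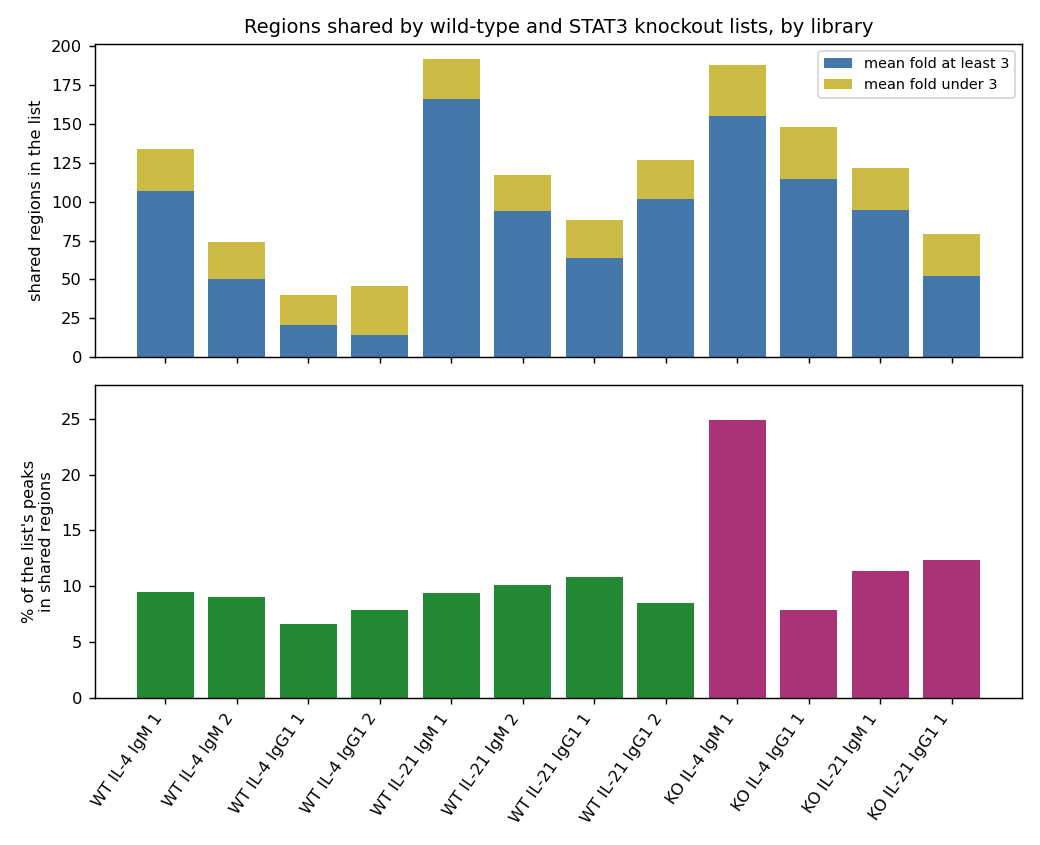
Upper panel: number of shared regions with a peak in each of the 12 lists, split into regions with a mean fold enrichment of at least 3 and under 3. Lower panel: percent of each list's peaks that lay in shared regions, wild type in green and knockout in purple. The KO IL-4 IgM list stands at 24.9%, and the other lists lie between 6.61% and 12.3%.

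The rule treats both cytokines and both isotypes alike, so the share of a list's peaks in shared regions could be compared between them. The shares come from the calls that chose the regions, and each list helped to choose the regions it is scored on. The KO IL-4 IgM list was the sole KO source of 95 shared regions. The lists are therefore not independent, and the p-values are given as a description. With IL-21 the mean share was 10.5% over 6 lists and with IL-4 it was 10.97%, a difference of -0.513 percentage points (two-sided exact permutation test within genotype and isotype, 144 arrangements, p = 0.986, adjusted over 2 tests 0.986). The IL-21 lists were higher in 3 of 4 strata, and without the KO IL-4 IgM list the difference turned to 1.79 points. IgM lists had a mean of 12.4% and IgG1 lists 9.03%, a difference of 3.37 points (the same exact test within genotype and cytokine, p = 0.181, adjusted 0.361, higher in 3 of 4 strata). Neither difference passed the test, for which the smallest p is 0.0139.

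The isotype difference depended on 2 choices. With the regions of mean fold under 3 left out, it was 4.22 points with an exact permutation p of 0.0139, but when the KO IL-4 IgM list was left out as well it was 1.30 points, with p = 0.0694. With all shared regions and without that list it was 0.19 points (p = 0.722, exact permutation). These p-values too are only a description, since the shares come from the calls that chose the regions. In all, 92 shared regions (26.1%) were in IgM lists only and 18 (5.10%) in IgG1 lists only, beside 20.2% and 3.15% of the regions of at least 2 lists and 49.7% and 43.1% of all regions. Fewer IgG1-only than IgM-only regions was thus the order among recurring regions as a whole.

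Single regions could hardly pass a test between the cytokines in this design. By Fisher's exact test on presence in 6 IL-21 and 6 IL-4 lists, adjusted by Benjamini-Hochberg over all 11227 regions, 0 regions passed and the smallest adjusted p was 1. The smallest p the test can give is 0.00216, so at least 487 regions would have had to reach it for any to pass, and 0 did; the count of 0 therefore says little about single regions. At an unadjusted p under 0.05, 1 region passed with more IL-21 lists (0.00891% of regions, and that 1 was shared), and 0 regions with more IL-4 lists (0%). It was the region at Cmtm6 on chromosome 9 (114730345 to 114731792), in 5 of 6 IL-21 lists and in 0 of 6 IL-4 lists, with p = 0.0152 by Fisher's exact test. Of all shared regions, 133 (37.7%) were in more IL-21 than IL-4 lists, 94 (26.6%) in more IL-4 lists and 126 (35.7%) in as many of both. The same shares were 49.4%, 48.5% and 2.03% over all regions, most of them in a single list, and 67.4%, 10.8% and 21.8% over the 1047 regions of at least 2 lists, shared ones included. At least 1 list of each cytokine had a peak in 258 shared regions.

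No excess sharing of a KO list with the WT lists of its own cytokine and isotype was detected. The mean log2 number of regions shared was 5.59 for lists of the same group and 5.56 for the others, a difference of 0.03 (two-sided exact permutation of the KO labels, 24 arrangements, p = 0.75, smallest possible 0.0417). The WT IL-21 IgM 1 list, with the most peaks of any WT list, shared 106 regions with the KO IL-4 IgM list and 68 with the KO IL-21 IgM list of its own group. The WT IL-4 IgG1 lists, the shortest, shared 25 to 37 regions with any KO list. Only 2 to 16 of the regions in such a pair had a fold of at least 3.

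Fold enrichment here is the value the authors' peak caller gave each peak, the height at the summit over the local background. The mean fold over the lists that held a shared region ran from 1.49 to 12.1 with a median of 4.84, beside medians of 6.03 for the 643 WT-only regions of at least 2 lists and 4.48 for the 10180 regions of a single list. For description the shared regions were split into 2 parts by this value. In 314 of them it was at least 3, and in 39 it was under 3, a limit set with the values known; the nearest values on either side were 2.95 and 3.19. Spearman's rho between mean fold and number of lists was 0.00186 over all 353 regions and 0.28 over the 314, as a description across regions that share libraries.

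**Figure D3:**
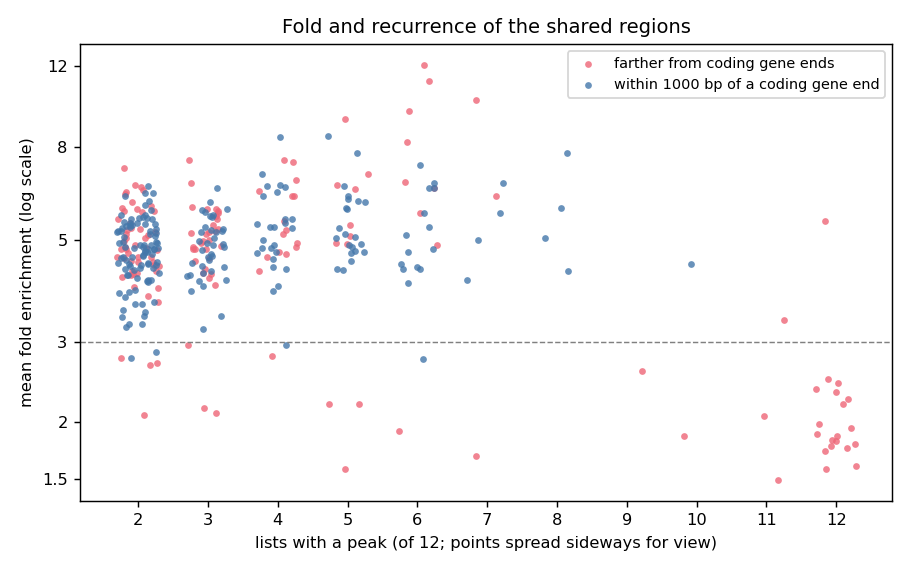
Mean fold enrichment of each of the 353 shared regions (log scale) against the number of lists with a peak, in blue where the best summit was within 1000 bp of the end of a protein-coding gene and in red elsewhere. The dashed line is a fold of 3. Of the 19 regions in all 12 lists 18 lie under the line and 0 are at a gene end, while all 4 regions in 8 lists are above it and at a gene end.

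Low fold went with the highest recurrence. Of the 19 regions in all 12 lists 18 had a mean fold under 3, as had 3 of the 5 regions in 10 or 11 lists, beside 6 of the 147 in 2 lists. A stretch near the start of chromosome 9, from 3000918 to 3038262, held 16 of the 39 low-fold regions, 12 of them in all 12 lists. No protein-coding gene lay within 50000 bp of these, and chromosome 9 as a whole had 43 shared regions, 7.38% of its regions, above every other chromosome but Y, where it was 1 of 7 regions.

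The first region of that stretch, chr9:3000918-3001526, shows the pattern of values. Its fold was 2.72 and 2.01 in the WT IL-4 IgM lists, 1.73 and 4.08 in WT IL-4 IgG1, 2.12 and 1.68 in WT IL-21 IgM and 1.65 and 1.79 in WT IL-21 IgG1. With IL-4 the KO IgM and IgG1 lists had 2.51 and 2.55, and with IL-21 they had 2.05 and 2.07. WT and KO values overlapped, and the second WT IL-4 IgG1 list was the highest of all. That same list had the highest fold in 15 of the 18 low-fold regions found everywhere.

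Outside chromosome 9, the low-fold regions in all 12 lists were at chr2:98666585-98667302 (mean fold 1.98), chr3:5860406-5860724 (1.76), chr14:19416949-19418295 (1.60), chr14:19418555-19418936 (1.86), chr17:39843021-39848761 (1.88) and chr13:44869579-44870010 (2.33). The region on chromosome 17 overlapped the annotated 18S ribosomal RNA pseudogene Rn18s-rs5 and the lncRNA AY036118. The region on chromosome 13 lay inside Jarid2, a cofactor of Polycomb repressive complex 2, 51982 bp from its nearer end. The others had no protein-coding gene within 50000 bp.

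The exception among the 19 was chr1:24611560-24616156, 24572 bp from the nearer end of the collagen gene Col19a1, with a mean fold of 5.49. It overlapped the annotated pseudogenes Gm10222 and Gm10925. Its fold was lowest, at 3.67, in the second WT IL-21 IgM list and highest, at 8.79, in the second WT IL-4 IgG1 list, with KO values of 3.89 to 6.34 inside that range. It was the sole region in all 12 lists when peaks with a fold under 3 were left out.

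The low-fold regions stood on a high local background, but this is not a trait independent of their fold. A peak's fold and −log10 p together fix a fragment count and a background under the caller's Poisson model. By this reading the median background over the lists was at least 10 fragments in 35 of the 39 low-fold regions and in 5 of the 314 others, for which the median was 2.61. No peak has a −log10 p below 5.00, so a low fold can be called only where the background is high. These counts therefore follow in large part from the fold limit. Of the 39, 25 lay more than 50000 bp from a protein-coding gene and 4 within 1000 bp of a gene end (Lars2, Pik3r1, Slc30a4 and Spsb1). No repeat annotation was used, so whether these regions are repeats was not tested.

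The 5 regions in 10 or 11 lists were of both kinds. The region at Kpnb1, which encodes importin beta-1 of nuclear import, was at chr11:97187964-97188562, 392 bp from the gene's annotated start. Its fold was 4.07, 2.92, 4.17 and 4.63 in the 4 WT IL-4 lists and 6.21, 5.04, 3.96 and 4.67 in the 4 WT IL-21 lists, with 4.56 in KO IL-4 IgM and 4.00 in KO IL-21 IgM, and no peak in either KO IgG1 list. The KO values lay within the range of the WT values. The other 4 were chr6:3201018-3201567 (mean fold 3.34), a region inside the filamin-interacting gene Filip1l (2.06), chr14:124801608-124802073 (1.49) and chr11:109011681-109012071 (1.86). Peak1, the gene of a pseudokinase, held the 1 region in 9 lists, with a mean fold of 2.59.

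Shared regions lay at gene ends more often than other peaks did. The best summit was within 1000 bp of an end of a protein-coding gene in 203 of the 353 shared regions (57.5%), beside 17% of all 11227 regions, 13.8% of the single-list regions, 43.4% of the WT-only regions of at least 2 lists and 51.0% of the 51 KO-only regions of at least 2 lists. Of the rest, 62 shared regions were inside a gene, 49 within 50000 bp of one and 39 farther away. The ends were mostly starts: the summit was within 1000 bp of a coding start in 182 of the 345 shared regions on chromosomes with start positions, at a median distance of 113 bp. Of the 314 regions with a mean fold of at least 3, 199 (63.4%) were at gene ends.

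Within each list the comparison was made over peaks. The mean share of peaks at gene ends was 46.3% for peaks in shared regions and 17.8% for the other peaks of the same list, a difference of 28.4 percentage points, in the same direction in 12 of 12 lists (two-sided exact sign-flip permutation test, p = 0.000488, the smallest it can give, adjusted over 2 tests 0.000977). The lists share regions and are not fully independent. By the rule every shared region is in at least 2 lists, while 10180 of the 11227 regions were in a single list. The contrast thus sets recurring peaks against mostly single-list peaks, and it cannot separate sharing between genotypes from recurrence. Its p-value is given as a description. Restricted to peaks whose −log10 q reached 5, it was 1.86 points (p = 0.446 by the same exact test), and with the low-fold regions also left out there it was 31.7 points (p = 0.000488).

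Against WT-only regions that also recur the difference did not pass the test. The share for shared regions was 43.9% over the 8 WT lists and 53.3% for peaks in WT-only regions of at least 2 lists, a difference of -9.38 points (exact sign-flip permutation test, p = 0.227, higher in 4 of 8 lists). It was 2.37 to 8.35 points in the 4 WT IL-21 lists and -34.9 to -8.41 in the 4 WT IL-4 lists. The gap differed by 30.8 points between the cytokines (exact permutation test within isotype, p = 0.0556, the smallest its 36 arrangements allow). Once the low-fold regions were left out, the gaps in the WT IL-4 lists had both signs, and those in the WT IL-21 lists were all positive. With the low-fold regions left out the overall difference was 9.95 points (exact p = 0.0313), in the other direction. That did not hold further: without the KO IL-4 IgM list as well it was 9.19 (exact p = 0.0859), with only peaks of fold 3 or more it was 9.67 (exact p = 0.0547), and with low-fold regions left out and a −log10 q of 5 or more it was -2.16 (exact p = 0.875).

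**Figure D4:**
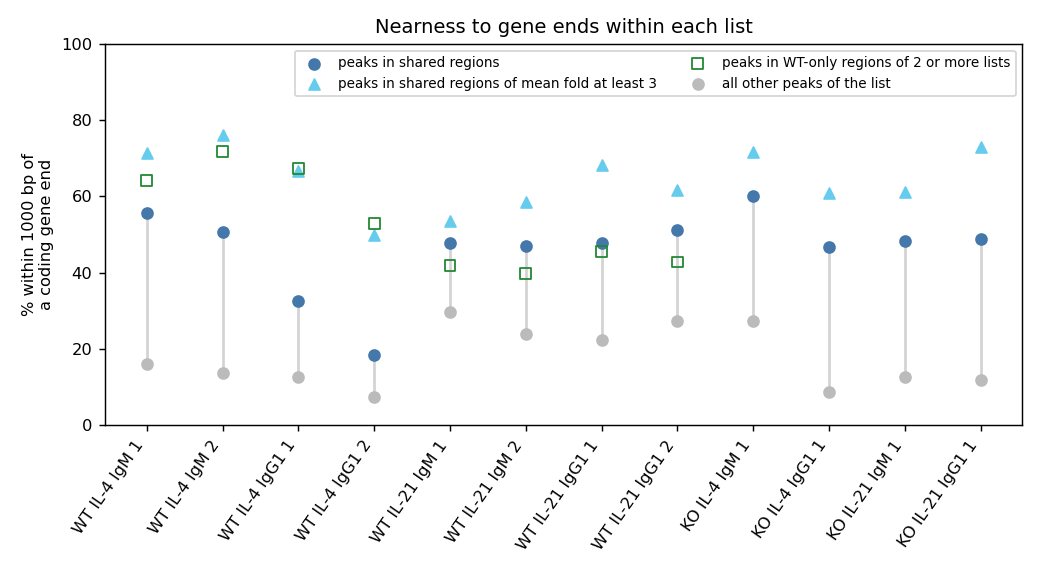
Percent of peaks within 1000 bp of an end of a protein-coding gene in each of the 12 lists: peaks in shared regions (filled blue circles), those of mean fold at least 3 (triangles), peaks in WT-only regions of at least 2 lists (open squares, WT lists only) and all other peaks of the list (grey). The blue circle is above the grey one in 12 of 12 lists, with means of 46.3% and 17.8%.

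Shared regions at gene ends in most lists were those of Kpnb1 (above), Avl9, Clic4, Gpr155, Mex3c, H2ac19, H2ac18, Prdx3, Abcb9 and Ppp2r3a. Avl9 (chr6:56714619-56715179) had a fold of 6.60 and 6.63 in the WT IL-4 IgM lists, 9.89 and 5.53 in WT IL-21 IgM and 9.48 in the second WT IL-21 IgG1 list. In the KO lists it had 7.40 (IL-4 IgM), 10.8 (IL-21 IgM) and 5.62 (IL-21 IgG1), so that its highest value of all was in a KO list. The other 4 lists had no peak there.

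Clic4, the gene of an intracellular chloride channel protein, had peaks in 5 WT and 3 KO lists at chr4:135272760-135273163. The folds were 6.53, 4.59 and 4.53 in the 3 WT lists with IL-4, 4.94 and 5.42 in the 2 with IL-21, and the KO folds were 4.05, 6.55 and 3.69, in an overlapping range. Gpr155, which encodes a cholesterol sensor of the lysosome, was held by 5 WT lists with folds of 3.38 to 5.55 and by 3 KO lists with 3.04 to 5.18 at chr2:73386444-73386919. Again neither genotype lay above the other.

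Prdx3 and Abcb9 were held by all 4 KO lists and by 3 WT lists each. Prdx3, a peroxidase of mitochondria, had KO folds of 6.44, 6.90, 6.18 and 7.80 at chr19:60874320-60874700 and WT folds of 5.28, 3.47 and 4.11, so here every KO value was above every WT value. Abcb9, a peptide transporter of lysosomes, had KO folds of 4.21, 4.39, 3.96 and 4.24 at chr5:124095737-124096280 and WT folds of 3.38, 4.63 and 3.80, which overlap. Ppp2r3a, a regulatory subunit of protein phosphatase 2A, had 3 WT folds of 7.62 to 7.88 and 3 KO folds of 6.03 to 8.06 at chr9:101251473-101251986.

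A pair of neighbouring histone H2A genes on chromosome 3 had most of their peaks in WT lists. H2ac19 (chr3:96239877-96240404) was in 6 WT lists with folds of 6.29 to 7.80 and in 1 KO list with 4.80. H2ac18 (chr3:96245140-96245863) was in 6 WT lists with folds of 4.22 to 6.03 and in 1 KO list with 4.60. Copies of histone genes are near-identical, so how reads were placed among them bears on both. Mex3c, an RNA-binding ubiquitin ligase gene (chr18:73572119-73572748), was likewise in 7 WT lists (3.82 to 8.39) and 1 KO list (4.21).

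**Figure D5:**
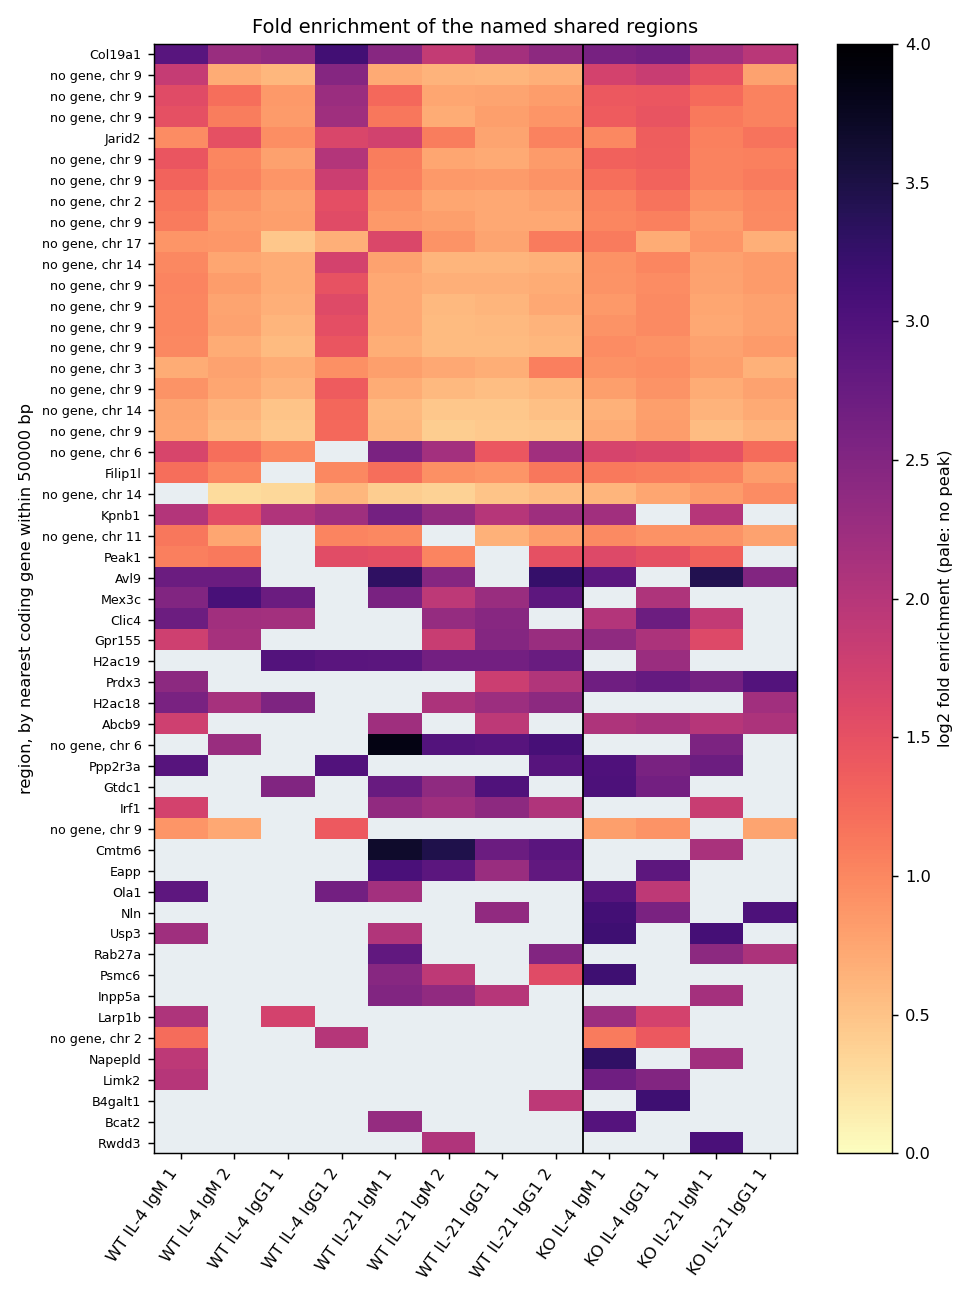
Fold enrichment (log2 colour scale) of 53 named shared regions, ordered by number of lists and then by mean fold, in the 12 lists, with WT left and KO right of the black line. Pale cells have no peak. The regions in all 12 lists at the top are pale orange, with a mean fold under 3 in 18 of 19, while most regions below them are darker and have gaps.

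The shared regions with the highest mean fold over the KO lists that held them were mostly in few lists. Psmc6, an ATPase subunit of the proteasome, had 9.01 in the KO IL-4 IgM list and 5.47, 3.77 and 2.97 in 3 WT IL-21 lists. The galactosyltransferase gene B4galt1 had 8.94 in KO IL-4 IgG1 and 3.79 in 1 WT list. Usp3, a histone deubiquitinase gene, had 9.01 and 8.58 in the KO IgM lists and 4.64 and 4.10 in 2 WT lists. In these 3 regions every KO value was above every WT value (they were chosen by their KO fold).

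The other regions of that set were at Rwdd3 (8.34), Avl9 (7.94), the mitochondrial aminotransferase gene Bcat2 (7.72), the peptidase gene Nln (7.59), Eapp (7.26), Gtdc1 (7.19) and Napepld (7.16), an enzyme gene of N-acylethanolamine synthesis. Of the 10 regions, 8 were within 1000 bp of a gene end, B4galt1 and Eapp being the 2 that were not. The highest fold of any KO peak, 26.5 in the KO IL-4 IgM list, was in a region of that list alone and so not shared.

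A set of 23 shared regions was in all 4 WT IL-21 lists but not in all 12 lists. Regions in all 4 WT IL-21 lists made up 2.24% of the regions with a WT peak (167 regions), and 42 of them were shared, counting the 19 in all 12. Of the 23, 16 had exactly 1 KO list and 6 had no WT IL-4 list. In 13 of the 23 every WT IL-21 fold was above every KO fold. These values come from the contrast that chose the regions and are a description.

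The highest mean folds of all shared regions were in this set and are named after their values were seen. Near Mllt6, a partner gene of leukaemia fusions, chr11:97659047-97660511 had folds of 24.4, 14.3, 11.7 and 13.3 in the WT IL-21 lists, 4.01 in 1 WT IL-4 list and 4.89 in the KO IL-4 IgM list. Inside the inflammatory caspase gene Casp4, chr9:5311388-5311941 had 19.1, 14.1, 11.1 and 14.2 with IL-21 in WT, 4.29 in 1 WT IL-4 list and 3.97 in the KO IL-4 IgG1 list. At Maff, chr15:79347210-79348250 had 19.1, 13.3, 7.95 and 11.7 with IL-21 in WT, 7.35 in 1 WT IL-4 list, and 5.63 and 5.93 in 2 KO lists. In each of the 3 the WT IL-21 values were the highest 4.

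The 5 regions with the largest excess of IL-21 over IL-4 lists were at Cmtm6, Irf1, Inpp5a, Rab27a and chr6:127239528-127240602. Cmtm6, a membrane protein that stabilises PD-L1, had 12.7, 11.1, 6.61 and 7.43 in the WT IL-21 lists and 4.32 in the KO IL-21 IgM list. The chromosome 6 region, 87803 bp from the cyclin gene Ccnd2, had 14.5, 7.75, 7.63 and 8.53 in these WT lists, 4.82 in 1 WT IL-4 list and 5.87 in the KO IL-21 IgM list. Irf1 had 5.11, 4.65, 5.19 and 4.16 with IL-21 in WT, 3.26 in 1 WT IL-4 list and 3.54 in KO IL-21 IgM. In all 3 the KO IL-21 value lay below the 4 WT IL-21 values.

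Inpp5a, an inositol phosphatase gene, was in 3 WT IL-21 lists (3.97 to 5.66) and in KO IL-21 IgM (4.49), and Rab27a, a GTPase gene of vesicle secretion, in 2 WT IL-21 lists (7.06 and 5.63) and both KO IL-21 lists (5.25 and 4.23). The 5 with the largest excess of IL-4 lists were Ola1, Larp1b, the cofilin kinase gene Limk2, chr2:98662237-98662709 and chr9:3014034-3014358. Ola1 had 7.24 and 6.25 in 2 WT IL-4 lists, 4.53 in 1 WT IL-21 list and 7.59 and 3.75 in the KO IL-4 lists. Larp1b had 4.22 and 3.27 in WT IL-4 lists and 4.73 and 3.27 in the KO IL-4 lists, and Limk2 had 3.96 in 1 WT IL-4 list and 6.44 and 5.63 in the KO IL-4 lists. The last 2 regions had mean folds of 2.79 and 1.91 and no protein-coding gene within 50000 bp.

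Shared regions were counted at genes of 14 lists, chosen for B cell and cytokine biology and for common cell functions. By the nearest protein-coding gene within 50000 bp, 309 of the 6229 genes with any region had a shared one, or 4.96%. In the list of B cell identity and germinal centre genes 4 of 22 genes with a region had one, and in JAK-STAT signalling and feedback 1 of 21, in survival and proliferation 1 of 20, in AP-1 and immediate early genes 1 of 17, in IL-4 and STAT6 responsive genes 1 of 8, in splicing 1 of 14, in ribosomal proteins and translation factors 1 of 10 and in housekeeping genes 1 of 3. The count was 0 of 12 for plasma cell differentiation, 0 of 11 for CD40 and NF-kB, 0 of 13 for histones and chromatin, 0 of 8 for heat shock, 0 of 1 for T and NK cell markers and 0 of 4 for myeloid markers. The lists leave many genes out: H2ac19, H2ac18, Bcl10 and Malt1 had shared regions and were on no list with a count of 0. A count of 0 therefore holds for the listed genes only. With 1 to 22 genes a list, these shares are counts and not results about the lists.

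The 4 B cell genes were Id3, Bcl11a, Ccr7 and Pou2f2. Id3, an inhibitor of E proteins, had a region 26 bp from the gene's annotated start. Its folds were 4.93, 5.34, 5.14 and 5.93 in 4 WT lists of both cytokines and 5.21 in KO IL-4 IgM. Bcl11a, a transcription factor gene of early B cell development, had 7.0, 6.28 and 6.57 in 3 WT IL-21 lists and 5.08 in KO IL-4 IgM. Ccr7, the chemokine receptor gene of homing to lymph nodes, had 5.15 and 5.26 in the WT IL-21 IgM lists and 7.11 in KO IL-21 IgM. For Pou2f2, which encodes Oct-2, the values were 8.83 and 4.98 in the same WT lists and 6.18 in KO IL-21 IgM. The regions of Bcl11a, Ccr7 and Pou2f2 were 26735, 4444 and 42271 bp from a gene end, and for Ccr7 and Pou2f2 all the lists were IL-21 IgM lists. The Pou2f2 region was nearer, 2839 bp, to an annotated Pou2f2 start inside the gene. The Bcl11a region overlapped the lncRNA Gm12066, 1067 bp from its start.

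Cish, the feedback inhibitor of STAT signalling that stands in both the JAK-STAT and the IL-4 lists, had a region 5382 bp from its end with 4.59 in the first WT IL-21 IgM list and 4.41 in KO IL-21 IgM. Klf10, a TGF-beta responsive repressor gene, had 4.90, 5.24, 7.31 and 4.71 in the WT IL-21 lists, 4.32 in 1 WT IL-4 list and 4.24 in KO IL-4 IgM. The immediate early gene Ier2 had 5.73 and 4.42 in 2 WT lists and 5.49 in KO IL-4 IgM. Rps19 of the small ribosomal subunit, Ywhaz of the 14-3-3 proteins and the splicing factor gene Luc7l3 had 1 WT and 1 KO list each, with folds of 4.30 to 5.79, and the KO list was KO IL-4 IgM in all 3.

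At the edge of the rule, the smallest overlap of a WT and a KO peak in a shared region was 2 bp, and 11 regions had an overlap of at most 50 bp, beside a median of 265 bp. Outside the rule, 18 WT regions had a KO peak within 100 bp that did not overlap, the nearest 3 bp away, and 81 had one within 1000 bp. The lists give no depth. By the reading of fold and −log10 p the smallest pileup called in a list was 10 to 12 fragments, so a list without a peak at a shared region may still have had fragments there.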

How the data were processed

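STAT3 CUT&RUN peak lists of 12 libraries were analysed (the input was not analysed). MACS2 2.2.7.1, Bowtie2 2.4.1, Trimmomatic 0.39, deepTools 3.5.1 and mm10 are the tools and build of the submitters' processing notes. What peaks were called against, and how reads were filtered or scaled, is not given in the sources used here. The deposited lists, 1 per library, give a position, a summit, a score, a fold enrichment (a ratio, column 7), a −log10 p and a −log10 q as the authors' caller wrote them. In each deposited list the score equals 10 times the −log10 p, rounded down, and no −log10 p is below 5.00.

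Of 13908 peaks, 395 were left out because they lay on unplaced sequences or, for 21, on the mitochondrial genome. Gene spans and 32851 promoters came from RefSeq tables on GRCm38.p6 (21887 protein-coding genes). The promoter table used here has no chromosome 18, so the 8 shared regions there have no start distance or motif. A region's gene is the nearest coding span within 50000 bp of its best summit. Tests were two-sided exact permutation or sign-flip tests over lists and Fisher's exact test per region with Benjamini-Hochberg adjustment, checked on simulated data (Python 3.11.15, scipy 1.17.1). The fragment reading found a solution within 0.001 for 100% of peaks whose −log10 p is below 30, list by list; above that it was not checked, so only the count of regions at 10 or more fragments is given for high backgrounds.

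Named regions were those in all 12 lists, the 10 others in most lists, the 10 with the highest mean fold over KO lists, the 10 at gene ends in most lists, the 5 with the largest difference in lists between cytokines in each direction, and those at genes of 14 lists. The shared regions, these rules and the lists were chosen with earlier results of these data known. Alternatives were a −log10 q of at least 5, a fold of at least 3, equal list lengths, other merging limits, each library left out, and others added after seeing the data.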

Additional observations from a re-analysis of the deposited data

Results flagged for a closer look

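Among the 4 KO lists, the share of shared-region peaks at gene ends was 60.0% in the KO IL-4 IgM list and 46.7% to 48.8% in the other 3, a gap larger than Dixon's 95% limit for 4 values. Of 18 sets of 4 lists examined, this 1 passed, where chance passes about 1 in 20. That list also had the highest share of its peaks in shared regions (24.9%). Whether the 2 are linked was not tested.

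The gap in gene-end share between shared regions and WT-only regions of at least 2 lists differed by 30.8 percentage points between WT IL-21 lists (all 4 above 0) and WT IL-4 lists (all 4 below 0). The exact permutation test gave p = 0.0556, the smallest that its 36 arrangements allow, so the difference could not pass 0.05. With regions of mean fold under 3 left out, the shares in the WT IL-4 lists were 71.3%, 76.0%, 66.7% and 50.0%. The WT-only shares there were 64.2%, 71.8%, 67.4% and 52.9%, so these gaps had both signs. In the WT IL-21 lists the shares were 53.6%, 58.5%, 68.2% and 61.8%, beside 41.9%, 39.8%, 45.5% and 42.8%.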

How the results depend on the processing

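The number of shared regions was 139 with a −log10 q of at least 5, 202 with lists cut to 623 peaks, 71 when 2 KO and 2 WT lists were required, and 258 to 352 without 1 library. The regions in all lists numbered 1 with a fold of at least 3 and 19 to 20 without 1 library. With peaks cut to the summit there were 315 shared regions and 13 in all lists. The IL-21 minus IL-4 difference in the share of peaks in shared regions was -11.7 points (exact p = 0.0278) at the q limit, 0.315 at the fold limit, 0.00292 without the regions in all 12 lists, 0.329 without low-fold regions, and -1.64 to 1.79 without 1 library. The IgM minus IgG1 difference was 4.21, 4.05 and 4.22 points under those last 3 limits (each exact p = 0.0139, the smallest possible), and 0.186 to 3.95 without 1 library. For cytokine and isotype alike these p-values are only a description, because each list helped to choose the regions it is scored on.

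The gene-end gap to other peaks was 1.86 points at the q limit (exact p = 0.446) and 23.9 to 30.2 without 1 library. It was 14.8 (exact p = 0.0205) against only those other peaks whose −log10 p reached the median of the list's shared-region peaks. All shared-region peaks, weak ones included, were kept there. The gap to recurring WT-only peaks was -32.2 points (exact p = 0.00781) at the q limit, -15.3 (exact p = 0.0313) at equal length, 9.67 (exact p = 0.0547) at the fold limit, 5.59 (exact p = 0.336) without the regions in all 12 lists, 9.95 (exact p = 0.0313) without low-fold regions, 9.19 (exact p = 0.0859) also without KO IL-4 IgM, -2.16 (exact p = 0.875) without low-fold regions at the q limit, and -14.9 to -5.56 without 1 library. The same-group log2 difference in sharing was -0.16 to 0.31 without 1 library, with -0.0761, -0.0369, -0.00861, -0.0443, -0.160 and -0.00784 where it turned. The count of regions differing between cytokines could hardly leave 0 in this design, so its value of 0 under the alternatives shows no stability. With a replicate block the differences were the same by construction, -0.513 for cytokine (p = 0.969) and 3.37 for isotype (p = 0.219, exact permutation); the labels give no shared source for a number. The causes of these shifts were not tested. Of the 63 named regions, 28 were in the same lists at the q limit, 36 at the fold limit and 38 at equal length. Depth is not given, and a missing peak is not an absence of signal.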
